A study of Mus musculus with 22 samples.

Results

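The genes described here are 10 effectors and targets of the canonical Wnt pathway, measured in mouse embryonic stem cells that were grown with an inhibitor of GSK3. They are Ctnnb1, which encodes beta-catenin; Tcf7l1, Tcf7, Tcf7l2 and Lef1, which encode the TCF/LEF DNA-binding proteins; and the feedback and target genes Axin2, Nkd1, Sp5, Cdx1 and Lgr5. They were taken by name from a deposited expression table, and all 10 were found among its 22330 genes. Levels are given in FPKM, fragments scaled by transcript length and by library depth, so they can be compared between genes of different length.

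On the GRCm38 mouse genome (mm10), by gene symbol in the RefSeq annotation, Ctnnb1 lies at chr9:120933400-120960507, Tcf7l1 at chr6:72626371-72789045, Tcf7 at chr11:52246527-52283383, Tcf7l2 at chr19:55741797-55933659 and Lef1 at chr3:131110297-131224357. Axin2 lies at chr11:108917828-108950783, Nkd1 at chr8:88521342-88594887, Sp5 at chr2:70474923-70477726, Cdx1 at chr18:61018862-61036199 and Lgr5 at chr10:115450314-115587780. All 10 are annotated as protein coding.

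The study set 22 libraries in 8 groups. All of the cells were embryonic stem cells kept in serum with 1000.0 U of LIF, 1 uM of the MEK inhibitor PD0325901 and 3 uM of the GSK3 inhibitor CHIR99021, so the controls carried the Wnt-activating drug too. NF45 WT and NF45 KO cells gave 2 poly(A) RNA-seq libraries each. The other set had 3 genotypes (NF90/NF110 WT cells, cells with NF110 KO, and cells with NF90+NF110 KO), each with 3 pairs of an input (total RNA depleted of ribosomal RNA) and an IP (RNA brought down by an antibody to NF90/NF110). Ilf2 encodes NF45, which forms complexes with NF90 and NF110, proteins that bind double-stranded RNA. Per the file headers the NF45 WT columns are named Rev, a word whose meaning no source used here gives. Whether the libraries of a group came from separate clones or cultures is not given either, beyond the study's word that they are biological replicates, so p-values measure the spread between these libraries.

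In the canonical Wnt pathway, a destruction complex built on Axin holds beta-catenin for phosphorylation by GSK3 and for breakdown. When a Wnt ligand or a GSK3 inhibitor stops this, beta-catenin protein gathers in the nucleus and binds TCF/LEF factors at target genes. In mouse embryonic stem cells the best-known effect is on Tcf7l1, a TCF that represses genes of the naive state such as Nanog and Esrrb, and GSK3 inhibition relieves that repression. The libraries measure RNA, not beta-catenin protein or its activity.

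TCF/LEF factors bind DNA at a short core sequence, so promoter windows of RefSeq (GRCm38.p6; 250 bases before to 50 after a transcript start) were searched on both strands for CTTTGAA and CTTTGAT. Windows were found for 8 of the 10 genes, 14 windows in all. A match was present in 1 of the 14 (7.14%) and in 8.67% of the 32544 windows of the same length in the table. The match is in the Sp5 window, where CTTTGAT starts at position -104 from the transcript start; the letters of both motifs were not present in the windows of the other 7 genes, which says nothing of binding elsewhere. The 250 bases before the start are shown for Sp5 (chr2:70474673-70474922), the gene with the match, for Lef1 (chr3:131110047-131110296), whose RNA differed most of the 10 between NF45 KO and NF45 WT, and for Axin2 (chr11:108920099-108920348), the standard feedback target, whose RNA did not pass the test in that comparison. All 3 are on the + strand, and the capitals mark the motif.
Sp5: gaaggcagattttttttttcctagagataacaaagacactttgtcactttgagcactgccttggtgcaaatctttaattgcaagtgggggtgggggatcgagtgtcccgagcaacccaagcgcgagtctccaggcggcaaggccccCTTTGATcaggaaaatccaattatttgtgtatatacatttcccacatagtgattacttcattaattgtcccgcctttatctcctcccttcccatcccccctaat
Lef1: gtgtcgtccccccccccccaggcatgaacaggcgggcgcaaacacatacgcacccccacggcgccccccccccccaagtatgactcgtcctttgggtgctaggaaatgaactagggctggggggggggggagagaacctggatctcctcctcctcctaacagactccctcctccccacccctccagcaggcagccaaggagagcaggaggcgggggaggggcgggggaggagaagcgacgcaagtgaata
Axin2: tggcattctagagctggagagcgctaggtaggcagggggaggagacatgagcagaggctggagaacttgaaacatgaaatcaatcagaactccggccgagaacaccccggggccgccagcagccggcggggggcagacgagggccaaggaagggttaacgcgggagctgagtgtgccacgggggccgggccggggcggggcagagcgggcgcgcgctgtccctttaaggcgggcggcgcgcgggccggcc
The Axin2 window lies before a transcript start inside the annotated gene.

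The NF45 libraries held 49144960 to 68751170 reads in genes, the inputs 9532048 to 11927305 and the IPs 14121480 to 19028118. As a check of the labels, Ilf2 fell from 286 ± 30.6 FPKM (SD, n = 2) in NF45 WT to 3.86 ± 0.0957 in NF45 KO. All 8 embryonic stem cell markers had at least 1 FPKM in some library of every set, and their summed level ran from 3822 to 5271 over all libraries, whereas 7 of 8 fibroblast and feeder markers were under 1 in every library of each set. The experiments numbered 3 stood apart for these genes: input 3 was the highest input in all 3 genotypes for 6 of the 10 (Lef1, Tcf7, Tcf7l2, Axin2, Sp5 and Ctnnb1), against 13.4% of 12693 genes. Results of the immunoprecipitation set were therefore also computed without those experiments, a choice made after seeing the data.

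Ctnnb1 RNA was the most abundant of the 10 in every group, followed by Tcf7l1 and Tcf7, and these 3 did not overlap each other in any group. Ctnnb1 ranged from 149 to 458 FPKM over the 22 libraries, Tcf7l1 from 49.1 to 116 and Tcf7 from 22.2 to 37.3. Tcf7l2, the TCF best known from intestine and pancreas biology, stayed between 3.6 and 9.34. Axin2 and Cdx1, a homeobox gene of posterior patterning, had the next highest means in all 6 groups of inputs and IPs, where their libraries overlapped each other. In the NF45 groups both were below Tcf7l2, in NF45 KO also below Lef1, and Axin2 was above Cdx1 without overlap. Nkd1, which encodes an antagonist that binds Dishevelled, was between 0.269 and 1.67 FPKM. Sp5, a zinc-finger gene widely used as a Wnt target, did not exceed 0.485 FPKM in any library, and Lgr5, the R-spondin receptor known from intestinal stem cells, did not exceed 0.143. Sp5 had 0 recovered reads in 3 libraries and Lgr5 in 8; at their depths a count of 0 allows up to 0.183 to 0.316 CPM (reads scaled by library depth) for Sp5 and 0.051 to 0.316 for Lgr5 (3 reads, counting error only). The FPKM and the read counts come from separate deposited tables, so a library with 0 reads can still list a small FPKM.

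**Figure D1:**
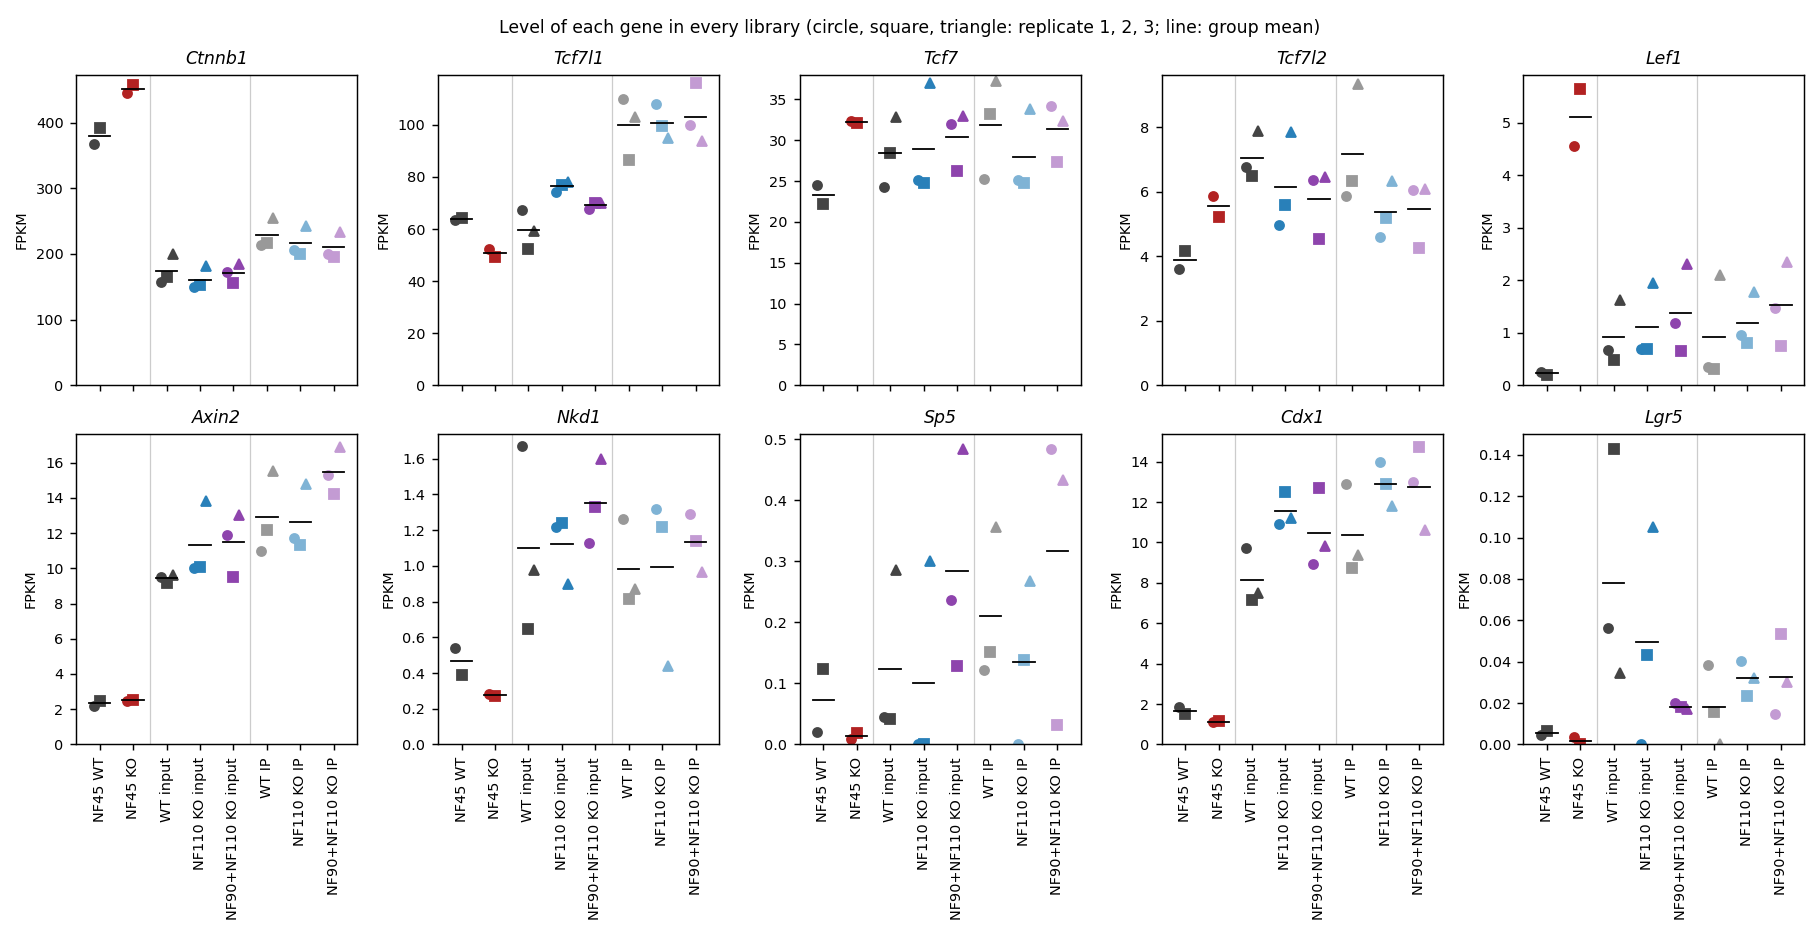
FPKM of each of the 10 genes in every library by group, with 1 panel per gene; circles, squares and triangles are replicates 1, 2 and 3, and lines are group means. Lef1 stands at 4.56 and 5.65 in the 2 NF45 KO libraries and at 2.34 or less in all others, while Sp5 and Lgr5 stay under 1 throughout.

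The levels of some genes differed between the 2 sets of wild-type libraries, which came from different kits. Axin2 averaged 2.33 ± 0.168 FPKM (SD, n = 2) in NF45 WT and 9.43 ± 0.22 (SD, n = 3) in NF90/NF110 WT inputs. Cdx1 averaged 1.68 ± 0.264 and 8.12 ± 1.41 in the same groups. Both genes were lower in each NF45 WT library than in each WT input, whereas Ctnnb1 was higher, at 379 ± 17.7 against 174 ± 23.0. Cell line and library kit cannot be told apart in these differences, and no test was made across the sets.

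In NF45 KO against NF45 WT, with 2 libraries a group, all 4 TCF/LEF genes and Ctnnb1 were called, and Axin2 and Cdx1 were not. A gene was called at an adjusted p under 0.05 in limma on log2(FPKM + 1), adjusted by Benjamini-Hochberg over all 11481 genes tested. Of the 10 genes 7 passed the filter on low values (at least 1 FPKM in at least 2 libraries) and 5 of these were called, 4 higher and 1 lower; 27.6% of all genes tested were called in either direction, 11.7% higher and 16.0% lower. Lef1 passed that filter only through the NF45 KO libraries, so its direction was fixed by the filter, and the count that does not depend on it is 4 of 6. Sp5, Lgr5 and Nkd1 did not pass. Not all of the 5 calls held under other processing. Tcf7l1 was not called with each library centred per chromosome, and Tcf7l2 and Ctnnb1 were not called without the filter.

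Lef1 differed most of the 10. It stood at 0.251 and 0.198 FPKM in NF45 WT and at 4.56 and 5.65 in NF45 KO, a ratio of means of 22.8. The groups lie far apart and rest on 30 and 37 reads against 752 and 911. In limma the log2 fold change of FPKM + 1 was 2.31 (SE 0.13, adjusted p = 0.00693), a scale that understates the change of a gene this low; in the authors' deposited table, where 31.4% of genes pass, it was 3.96 (adjusted p = 5.12e-60). Bulk RNA cannot tell a change in the number of cells that express a gene from a change in RNA per cell, here and in all that follows. In NF45 KO, Lef1 reached the level of Tcf7l2, with which it overlapped, while in NF45 WT it ranked below Nkd1.

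Tcf7, usually an activating TCF, rose from 24.5 and 22.2 FPKM to 32.4 and 32.1 (log2 0.45, SE 0.07, adjusted p = 0.0169). Tcf7l2 rose from 3.6 and 4.16 to 5.86 and 5.22 (0.42, SE 0.11, adjusted p = 0.0487). Ctnnb1 rose from 367 and 392 to 445 and 458 (0.25, SE 0.06, adjusted p = 0.0409). Without the filter neither Tcf7l2 nor Ctnnb1 was called (adjusted p = 0.073 and 0.0619), and with the replicate block Tcf7l2 was not (adjusted p = 0.0731). In each of these 3 genes both KO libraries were above both WT libraries; the groups did not overlap in 7 of the 7 genes tested and in 72.0% of all genes tested.

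Tcf7l1 was the 1 called gene that fell, from 63.6 and 64.1 FPKM to 52.4 and 49.1 (log2 fold change -0.33, SE 0.06, adjusted p = 0.0242). Its chromosome was lower as a whole in NF45 KO: the median log2 fold change was -0.48 over 542 genes of chromosome 6 and -0.50 over 630 genes of chromosome 8. When each library was centred per chromosome, the value for Tcf7l1 turned to 0.19 and missed the threshold (adjusted p = 0.076), so its fall was smaller than that of the typical gene of chromosome 6. Lef1, Tcf7, Tcf7l2 and Ctnnb1 lie on other chromosomes and were called with that centring too (Lef1 at 2.35, Tcf7 at 0.42, Tcf7l2 at 0.42 and Ctnnb1 at 0.32).

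Because these changes ran in opposite directions, the summed FPKM of the TCF/LEF genes was 91.3 ± 0.975 in NF45 WT and 93.6 ± 2.15 in NF45 KO (SD, n = 2), with libraries from 90.6 to 92.0 and from 92.1 to 95.1. Tcf7l1 made up 69.9% ± 1.12 of that sum in NF45 WT and 54.2% ± 1.24 in NF45 KO. The share of Tcf7 went from 25.6% ± 1.56 to 34.5% ± 0.634, that of Tcf7l2 from 4.25% ± 0.481 to 5.91% ± 0.346, and that of Lef1 from 0.245% ± 0.0383 to 5.47% ± 0.95. No share overlapped between the groups, where the FPKM of 72.0% of all genes tested did not overlap either. The shares of a library add up to the whole, so they are not independent of each other. Tcf7l1 lies on chromosome 6, whose median log2 fold change was -0.48, and the shares were not corrected for that. These are shares of RNA per length.

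**Figure D2:**
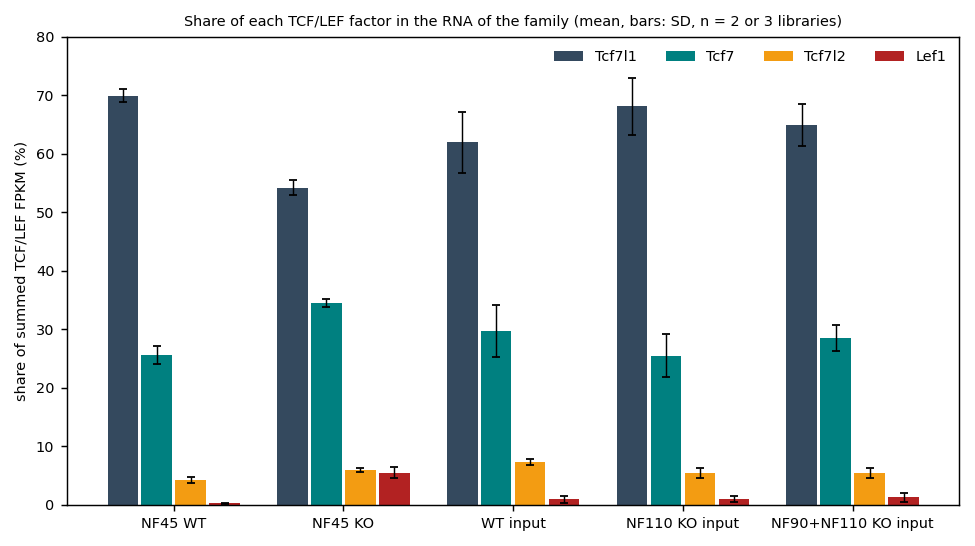
Share of the summed TCF/LEF FPKM (%) taken by each factor in NF45 WT, NF45 KO and the 3 groups of inputs; bars are means and whiskers SD over 2 or 3 libraries. Tcf7l1 holds most of the sum in every group and is lowest in NF45 KO, at 54.2%.

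Of the feedback and target genes only Axin2 and Cdx1 were tested in NF45 KO, and neither was called. Nkd1, Sp5 and Lgr5 were under the filter and could not be called. Axin2 stood at 2.21 and 2.45 FPKM in NF45 WT and at 2.48 and 2.52 in the knockout (0.08 on the log2 scale, SE 0.1, adjusted p = 0.579). Cdx1 stood at 1.87 and 1.49 against 1.11 and 1.14 (-0.33, SE 0.11, adjusted p = 0.0933). Nkd1 was at 0.542 and 0.39 in NF45 WT and at 0.283 and 0.269 in NF45 KO, under the filter, and it lies on chromosome 8. Sp5 was at 0.0212 and 0.124 against 0.00856 and 0.0182, which rests on 16 reads or fewer per library. For Axin2 and Cdx1 the groups did not overlap, but neither difference passed the test; with quantile scaling Cdx1 did (-0.41, adjusted p = 0.0457).

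All of the NF45 calls rest on 2 libraries a group. With either KO library left out, 0 of the 10 genes were called, Lef1 included (adjusted p up to 0.128, with a log2 fold change of 2.18 to 2.44 over all 4 ways of leaving out 1 library); with either WT library left out, 5 and 6 were. The whole table moved the same way, with 1 and 0 genes called without a KO library and 6184 and 5366 without a WT library, in place of 3171. Summed levels of markers of other lineages did not overlap between the groups, where 72.0% of single genes did not. The summed FPKM of 6 primitive streak and mesoderm markers was 6.91 to 7.95 in NF45 WT and 8.39 to 10.6 in NF45 KO. That of 6 endoderm markers was 3.27 to 3.94 and 1.96 to 2.09, and that of 5 neural markers 4.91 to 7.51 and 2.27 to 2.45. Few of these markers passed the filter, and of those 0 of 2, 0 of 1 and 1 of 1 were called, the last lower. The highest single genes (named after their values were seen) were Eomes, Gata4 and Sox1, at up to 6.99, 2.41 and 7.26 FPKM. The 8 fibroblast and feeder markers summed to 0.738 to 0.821 in NF45 WT and 1.57 to 1.6 in NF45 KO; 1 of them, Thy1 (named after its value was seen), passed the filter, through the NF45 KO libraries alone, and was called higher (log2 fold change 0.66). Of the 8 embryonic stem cell markers 2 were called higher and 3 lower, beside 11.7% and 16.0% of all genes tested. Nanog, among the lower, lies on chromosome 6 and turned to 0.19 with each library centred per chromosome. The part of these markers in the results was not tested.

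Other genes of the pathway, taken from lists by role, were called in both directions in NF45 KO. Over all genes tested 27.6% were called, 11.7% higher and 16.0% lower. Of 17 other Wnt targets 7 passed the filter. Of these, 3 rose and 1 fell, which is 57.1% in either direction. Ascl2, a target in intestinal stem cells, rose from 1.2 ± 0.148 to 5.78 ± 0.552 FPKM (log2 fold change 1.62, adjusted p = 0.00693). Tnfrsf19 rose from 0.981 ± 0.177 to 3.61 ± 0.143 (1.22, adjusted p = 0.00723), and Id2, an inhibitor of bHLH factors, from 9.86 ± 1.41 to 23.9 ± 3.53 (1.20, adjusted p = 0.01). Dusp4, a phosphatase of the ERK pathway on chromosome 8, fell from 1.16 ± 0.0922 to 0.413 ± 0.0773 (-0.61, adjusted p = 0.0196), and with per-chromosome centring its value was -0.05 (adjusted p = 0.762). Dusp4 passed the filter only through its 2 NF45 WT libraries, so the filter fixed its direction and the count of 1 that fell rests on it. Tnfrsf19 lay near the threshold of the filter in NF45 WT, at a mean of 0.981 FPKM. The median log2 fold change of the 7 was 0.31, against -0.03 over all genes tested.

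Among 36 receptors, ligands and ligand-processing genes, 14 passed the filter. Of these, 1 rose and 3 fell, a called share of 28.6%, near the 27.6% of all genes. Wls, which escorts Wnt proteins to the cell surface, rose from 8.57 ± 1.42 to 13.0 ± 0.437 FPKM (log2 fold change 0.56, adjusted p = 0.035). The co-receptor gene Lrp6 fell from 21.5 ± 0.696 to 12.2 ± 0.712 (-0.77, adjusted p = 0.00757), but it lies on chromosome 6 and had -0.26 (adjusted p = 0.0526) after centring per chromosome. Fzd9 fell by 0.42 and Ryk by 0.29 on the log2 scale; Ryk missed the threshold after centring (adjusted p = 0.0581). Of 8 genes of the R-spondin axis 2 passed the filter and 0 were called.

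Of 16 genes of the destruction complex and Dishevelled, 15 passed the filter. Of these, 0 rose and 2 fell, a called share of 13.3%, below the 27.6% of all genes. Amer1, which binds APC and beta-catenin, fell from 4.86 ± 0.505 to 2.95 ± 0.0713 FPKM (log2 fold change -0.57, adjusted p = 0.0225). Tnks, a tankyrase that marks Axin for breakdown, fell from 26.8 ± 0.895 to 19.9 ± 0.29 (-0.41, adjusted p = 0.0144), lies on chromosome 8, and turned to 0.15 (adjusted p = 0.124) after centring per chromosome. Among 14 nuclear cofactors and beta-catenin partners, 13 passed, with Tle4 and Ctbp2 higher (0.29 and 0.25) and Cdh1 and Aes lower (-0.52 and -0.26). Their called share of 30.8% was near that of all genes. Cdh1, the E-cadherin gene on chromosome 8, turned to 0.04 (adjusted p = 0.692) after the centring, where Tle4 and Ctbp2 also missed the threshold (adjusted p = 0.0577 and 0.0508).

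Of 17 inhibitors 9 passed. Dkk3 rose from 1.06 ± 0.461 to 2.93 ± 0.326 FPKM (log2 fold change 0.95, adjusted p = 0.0269). Only 1 of its NF45 WT libraries reached the 1 FPKM of the filter. Sfrp1, on chromosome 8, fell from 193 ± 32.1 to 118 ± 7.51 (-0.70, adjusted p = 0.0252). After centring per chromosome Sfrp1 had -0.14 (adjusted p = 0.434). The called share of the inhibitors was 22.2%, below the 27.6% of all genes. All 7 genes listed as repressed by Tcf7l1 passed. Tfcp2l1, a factor of the naive state, rose from 157 ± 4.21 to 193 ± 5.86 FPKM (0.30, adjusted p = 0.0263). Nanog, on chromosome 6, fell from 783 ± 12.9 to 624 ± 3.65 (-0.33, adjusted p = 0.0144) and turned to 0.19 (adjusted p = 0.061) after the centring. The other 5 of that list were not called, and its called share of 28.6% was near that of all genes.

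**Figure D3:**
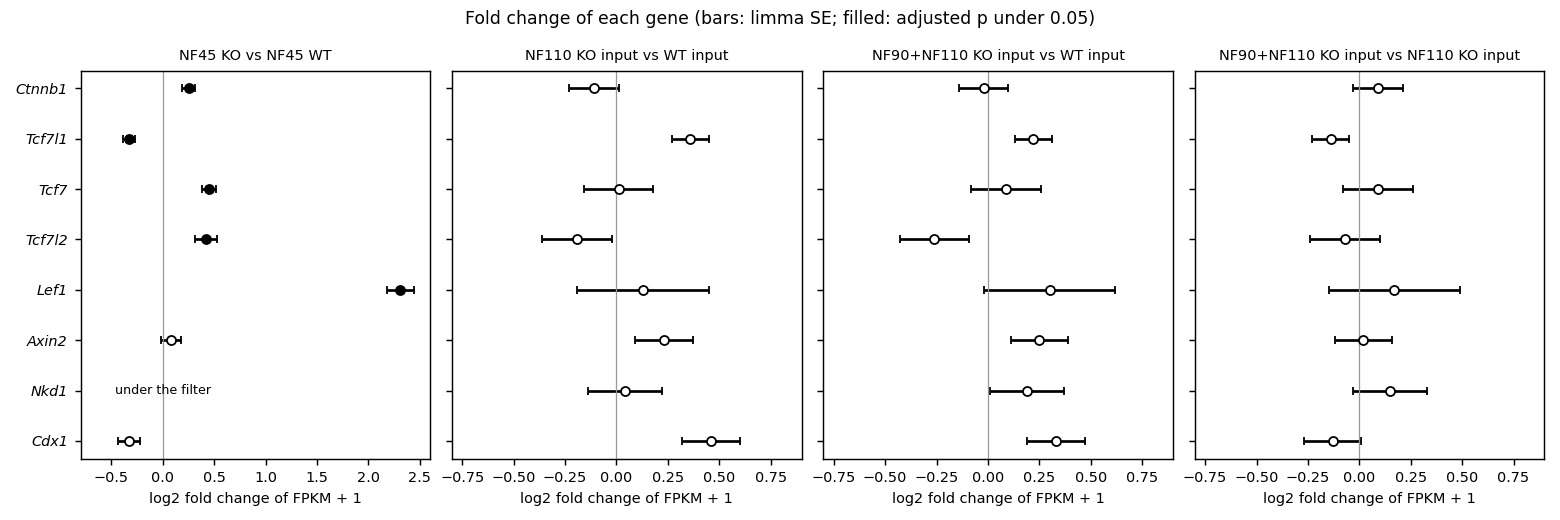
Log2 fold change of FPKM + 1 for each gene past the filter in NF45 KO against NF45 WT and in the 3 comparisons of inputs; bars are the limma SE and filled points have an adjusted p under 0.05. Filled points appear in the NF45 comparison alone, whose axis is wider than that of the other panels.

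In the inputs, which ask how the steady-state RNA differs when NF110 or both NF90 and NF110 are lost, 0 of the 8 genes past the filter (at least 1 FPKM in at least 3 of 18 libraries) were called in any of the 3 comparisons. Few genes were called in limma in either direction: 0.00788% of 12693 for NF110 KO against WT, 0.205% for NF90+NF110 KO against WT and 0.0473% for NF90+NF110 KO against NF110 KO. At an unadjusted p under 0.05 the counts were 2, 2 and 0 of the 8 genes, beside 16.2%, 14.9% and 10.5% of all genes. Both comparisons with WT share the same WT inputs. Tests on recovered reads called 0 in each comparison with edgeR, and with DESeq2 1 in the first and 0 in the others. Over all genes edgeR called 0, 22 and 6, and DESeq2 302, 338 and 83, against 1, 26 and 6 in limma.

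Tcf7l1 was the nearest to a call. It stood at 67.3, 52.4 and 59.4 FPKM in WT inputs, at 74.3, 77.0 and 77.9 in NF110 KO inputs and at 67.6, 69.9 and 70.0 in NF90+NF110 KO inputs. Every knockout library lay above every WT library, and the 2 knockouts did not overlap each other; groups did not overlap in 22.3%, 21.4% and 14.7% of all genes in the 3 comparisons. For NF110 KO against WT the log2 fold change was 0.36 (SE 0.09, adjusted p = 0.17), and in the authors' deposited table the value was 0.33 (adjusted p = 0.0425), which passes, beside 4.83% of genes there. The level of chromosome 6, the chromosome of Tcf7l1, differed between inputs of the same genotype: its median log2 deviation was 0.2499 in WT input 1, 0.2418 and 0.2176 in NF110 KO inputs 1 and 2 and 0.2393 in NF90+NF110 KO input 2, and between -0.2133 and -0.1543 in the other 5. With that level as a term, Tcf7l1 was called at 0.34 (adjusted p = 0.042) and Cdx1 at 0.39 (adjusted p = 0.049), and 685 genes were called in all in place of 1.

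Cdx1 was at 9.73, 7.13 and 7.5 FPKM in WT inputs, at 10.9, 12.5 and 11.2 in NF110 KO inputs and at 8.93, 12.7 and 9.84 in NF90+NF110 KO inputs. The NF110 KO libraries were above all of the WT libraries and the NF90+NF110 KO libraries overlapped both. The log2 fold change for NF110 KO against WT was 0.46 (SE 0.14, adjusted p = 0.196). Axin2 was at 9.49, 9.18 and 9.61 in WT, at 10.0, 10.1 and 13.8 in NF110 KO and at 11.9, 9.52 and 13.0 in NF90+NF110 KO. Its 3 WT values lay close together and both knockouts spread wider, with log2 fold changes against WT of 0.23 (SE 0.14, adjusted p = 0.443) and 0.25 (SE 0.14, adjusted p = 0.441).

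Lef1, which differed most in NF45 KO, was not called in the inputs. It stood at 0.664, 0.483 and 1.62 FPKM in WT, at 0.689, 0.698 and 1.94 in NF110 KO and at 1.18, 0.657 and 2.31 in NF90+NF110 KO. Within each genotype the input numbered 3 was the highest, by 2.81 to 3.51 times the lowest, and the groups overlapped. The log2 fold change was 0.13 (SE 0.32) for NF110 KO and 0.30 (SE 0.32) for NF90+NF110 KO, with adjusted p of 0.877 and 0.72. All of the input values are below both NF45 KO values, which came from another kit.

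Ctnnb1 averaged 174 ± 23.0, 161 ± 17.5 and 171 ± 14.6 FPKM (SD, n = 3) in WT, NF110 KO and NF90+NF110 KO inputs, and Tcf7 averaged 28.5 ± 4.26, 29.0 ± 6.94 and 30.5 ± 3.66. Tcf7l2 averaged 7.04 ± 0.748, 6.13 ± 1.51 and 5.78 ± 1.09, and Nkd1 1.1 ± 0.525, 1.12 ± 0.19 and 1.35 ± 0.234. Of these, the groups did not overlap for Tcf7l2 in NF90+NF110 KO against WT alone (log2 fold change -0.26, SE 0.17, adjusted p = 0.525). Of the other lists, 0 genes were called in any comparison of inputs, with 20 receptors and ligands, 15 genes of the destruction complex and 14 nuclear cofactors among those tested. Sp5 stayed between 0 and 0.485 FPKM and Lgr5 between 0 and 0.143.

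The experiments numbered 3 were also high beyond the inputs. Lef1, Tcf7l2, Axin2 and Ctnnb1 were highest in both input 3 and IP 3 of all 3 genotypes, a pattern seen in 5.53% of 12693 genes. Cdx1 was never highest in number 3. The labels do not say that a number marks a shared day or batch, and the inputs of number 1 went against each other in part, with correlations of their deviations between -0.469 and 0.532. Without the experiments numbered 3, 0 of the 8 genes were called in each comparison of inputs.

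RNA of Tcf7l1, Ctnnb1, Axin2 and Cdx1 was higher in the IP than in its own input in 9 of 9 experiments, those of the NF90+NF110 KO cells included, where the antibody has neither labelled target. The share of all genes above their input in 9 of 9 was not computed. Compared within experiments, 5 of 8 genes were called higher in WT, 2 in NF110 KO and 4 in NF90+NF110 KO, and 0 were lower. Over all 12693 genes 28.9%, 21.1% and 23.4% were called higher, 23.6%, 17.0% and 21.1% lower, and 52.5%, 38.1% and 44.6% in either direction. FPKM is relative to each library, so a value above the input means a larger share of the IP and not an amount bound.

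Tcf7l1 had the largest difference of the 10 in WT. Its IPs stood at 110.0, 86.4 and 103 FPKM beside inputs at 67.3, 52.4 and 59.4, a log2 difference of 0.73 (SE 0.06, adjusted p = 9.9e-07). In NF110 KO the IPs were at 108, 99.7 and 94.9 beside inputs at 74.3, 77.0 and 77.9 (0.39, SE 0.06, adjusted p = 0.00023), and in NF90+NF110 KO at 99.9, 116 and 93.7 beside 67.6, 69.9 and 70.0 (0.57, SE 0.06, adjusted p = 1.05e-05). The IP levels overlapped in all 3 genotypes, while the inputs were lowest in WT.

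Ctnnb1 had IPs at 213, 217 and 255 FPKM beside inputs at 157, 165 and 200.5 in WT (log2 difference 0.39, SE 0.04, adjusted p = 6.65e-06). The differences were 0.42 (adjusted p = 7.88e-06) in NF110 KO and 0.29 (adjusted p = 9.67e-05) in NF90+NF110 KO. Single experiments ran from 0.35 to 0.46 in the first 2 genotypes and from 0.21 to 0.33 in NF90+NF110 KO, so the latter did not overlap the others. The share of all genes with such a pattern was not computed. In limma neither difference from NF90+NF110 KO was called, with 0.1 for WT (SE 0.06, adjusted p = 0.315) and 0.13 for NF110 KO (SE 0.06, adjusted p = 0.157).

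Axin2 had IPs at 11.0, 12.2 and 15.5 FPKM in WT beside inputs at 9.49, 9.18 and 9.61 (log2 difference 0.40, SE 0.08, adjusted p = 0.000791). In NF90+NF110 KO it had IPs at 15.3, 14.2 and 16.9 beside 11.9, 9.52 and 13.0 (0.41, adjusted p = 0.000889), and was 0.15 in NF110 KO (adjusted p = 0.143). Cdx1 was 0.31 in WT (adjusted p = 0.00601), 0.15 in NF110 KO (adjusted p = 0.149) and 0.26 in NF90+NF110 KO (adjusted p = 0.0169). Tcf7 was called in WT alone, at 0.15 (SE 0.05, adjusted p = 0.0235), with -0.04 in NF110 KO and 0.04 in NF90+NF110 KO; in WT it was not called without the experiments numbered 3 (0.14, adjusted p = 0.103), with edgeR (adjusted p = 0.0796) or with DESeq2 (adjusted p = 0.135).

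Tcf7l2, Lef1 and Nkd1 were not called in any genotype. Tcf7l2 was above its input in 1 of 9 experiments, Nkd1 in 3 and Lef1 in 6. Mean log2 differences ran from -0.15 to 0.00 for Tcf7l2, from -0.14 to -0.06 for Nkd1 and from -0.08 to 0.09 for Lef1, whose single experiments in WT went from -0.30 to 0.24. Sp5 and Lgr5 were under the filter.

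**Figure D4:**
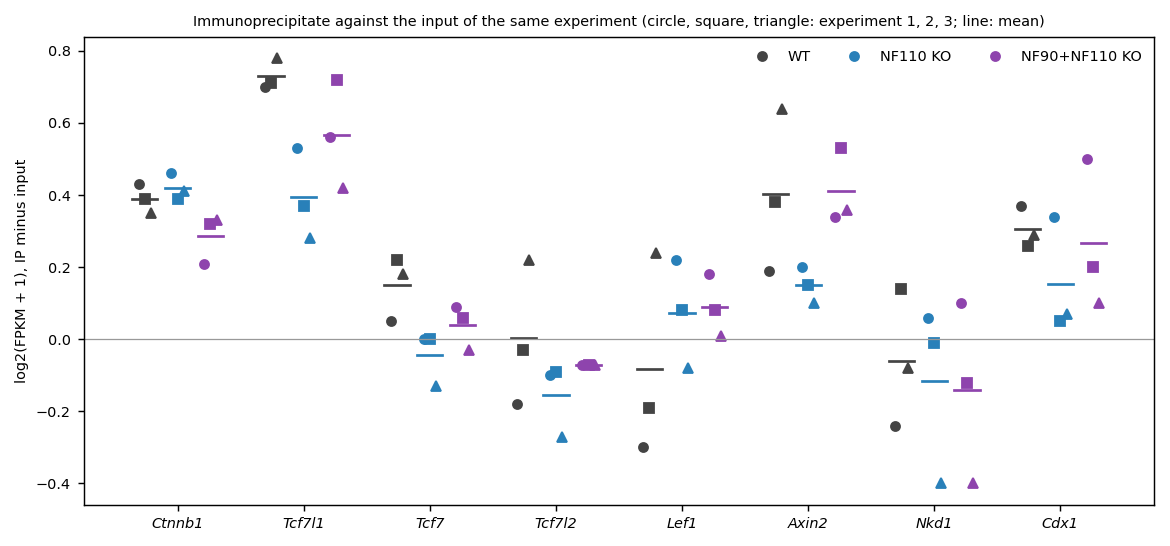
Log2(FPKM + 1) of the IP minus that of the input of the same experiment, for the 8 genes past the filter; colours are genotypes, symbols are experiments 1 to 3 and lines are means. Ctnnb1, Tcf7l1, Axin2 and Cdx1 lie above 0 in all 9 experiments, including those of NF90+NF110 KO cells.

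Differences between genotypes ask whether a gene's share in the IP depends on NF90 or NF110. Against the NF90+NF110 KO background, 0 of 8 genes were called for WT, where 5.82% of all genes were, and 0 of 8 for NF110 KO, where 9.91% were. At an unadjusted p under 0.05 the counts were 0 and 2, beside 23.5% and 28.1% of all genes, and the 2 were Axin2 (-0.26, SE 0.11, adjusted p = 0.139) and Ctnnb1 (0.13, SE 0.06, adjusted p = 0.157); edgeR and DESeq2 called 0 in both. Between WT and NF110 KO, 1 of 8 was called, beside 13.3% of all genes. That gene is Tcf7l1, with 0.70, 0.71 and 0.78 in the WT experiments and 0.53, 0.37 and 0.28 in the NF110 KO experiments (difference 0.34, SE 0.08, adjusted p = 0.0269). The groups do not overlap, but the NF90+NF110 KO values of 0.56, 0.72 and 0.42 lie across both, and the difference of WT from that background was 0.16 (SE 0.08, adjusted p = 0.26). The share of all genes whose WT and NF110 KO experiments do not overlap was not computed.

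The Tcf7l1 difference between WT and NF110 KO was not called without the experiments numbered 3 (0.26, adjusted p = 0.196), without the filter (0.34, adjusted p = 0.065), or without any 1 of experiments 2 and 3 of WT and 2 and 3 of NF110 KO. The count over all genes moved as well, from 1694 to 7 without the experiments numbered 3 and to 0 without the filter. The WT inputs of Tcf7l1 were the lowest, and an input enters both the level and the difference, so the 2 results on this gene are not independent.

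The counts of other pathway genes in the IPs stand beside 28.9%, 21.1% and 23.4% of all genes called higher in WT, NF110 KO and NF90+NF110 KO. Of 14 nuclear cofactors 10, 9 and 11 were higher in WT, NF110 KO and NF90+NF110 KO, and 1 was lower in each. The higher ones were led by the co-repressor gene Tle3 (0.86, 0.56 and 0.80). Next came Bcl9l, whose product links beta-catenin to transcription (0.80, 0.45 and 0.73). Of 20 receptors and ligands past the filter 9, 4 and 13 were higher and 3, 1 and 0 lower, the 4 of 20 being near the share of all genes. Of the destruction complex and Dishevelled genes 5, 4 and 6 of 15 were higher and 4, 5 and 3 lower, with Tnks the lowest in each (-0.67, -0.84 and -0.75). Median log2 differences were 0.36, 0.22 and 0.27 for the cofactors, 0.19, 0.05 and 0.26 for the receptors and ligands and -0.02, -0.01 and 0.11 for the destruction complex, against 0.02, 0.01 and 0.00 over all genes. The 7 genes listed as repressed by Tcf7l1 were higher in 5, 7 and 5 cases and lower in 0, 0 and 1, the other Wnt targets in 4, 2 and 5 of 11 and lower in 0, the inhibitors in 4, 4 and 5 of 11 and lower in 1, 2 and 0, and the R-spondin genes in 0, 0 and 1 of 4 and lower in 1, 1 and 0.

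Genes with a pattern like that of 4 of the members were named by Pearson correlation of log2(FPKM + 1) over the 22 libraries, with the means of the NF45, input and IP sets removed. For Lef1 the closest were Mcl1 (0.95), Pfkm (0.93) and Rbm47 (0.92), and for Ctnnb1 they were Ddb1 (0.91), Sall4 (0.91) and Atxn2 (0.90). For Axin2 they were Zc3h7b (0.91), Aebp1 (0.90) and Ldb1 (0.89), and for the low Sp5 they were Pdxk, LOC105245869 and Itgb3 (each 0.89). Among the members themselves, Ctnnb1 went with Tcf7l2 (0.82), Tcf7 (0.79) and Lef1 (0.72) and against Cdx1 (-0.66), while Axin2 went with Sp5 (0.73) and Tcf7 (0.70). Differences between genotypes within a set, such as that of Lef1 between NF45 WT and NF45 KO, were not removed and enter these correlations. The points share libraries, their scaling and the number 3 pattern, so these values describe the libraries.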

How the data were processed

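RNA-seq (4 libraries) and RNA immunoprecipitation (9 inputs and 9 IPs) of mouse embryonic stem cells were used as deposited. Per the submitters' processing notes, TopHat2 2.0.10, Cufflinks 2.2.1, Cuffnorm, HTSeq 0.6.1 and DESeq2 and the mm10 build were used; no source used here says which tool made which value, except that the file headers name DESeq2 for the normalised counts and comparisons. The authors deposited FPKM per gene and library. A second table holds, per the file headers, normalised counts (a signal of reads divided by a size factor) and, for each comparison of the authors, a log2 fold change, its standard error, a Wald statistic (score), a p-value and an adjusted p-value. Whole reads were recovered from the normalised counts: 100% of values in every library lay within 0.1 of a whole number.

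Values were tested as log2(FPKM + 1) with limma 3.58.1 (trend and robust; two-sided) in R 4.3.3, on genes with at least 1 FPKM in 2 of 4 NF45 libraries (11481 genes) or in 3 of the 18 others (12693 genes), with Benjamini-Hochberg adjustment over all of them. The fits took the 4 NF45 libraries, the 9 inputs, or the 18 inputs and IPs with 1 term per experiment, since the design pairs each IP with its input; after group means were removed, IP and own input correlated at 0.548 to 0.835, and the own input was the best of its genotype in 9 of 9. edgeR 4.0.16 and DESeq2 1.42.0 on recovered reads, other filters, scalings, pseudocounts and left-out libraries were alternatives, and the script was tested on simulated data. Tables were made with Python 3.11.15. Genes were placed on GRCm38 by symbol or synonym (22224 of 22330).

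The 10 genes and the pathway and marker lists were chosen with earlier results of these data known. The naming rule was all 10 genes, the targeted genes (for the NF90 and NF110 knockouts this check is not reported here), up to 4 called genes with the largest change per list and comparison (of these, the text gives only the leading ones for the IPs), and 3 genes most like each of Lef1, Axin2, Sp5 and Ctnnb1. Some genes stand in more than 1 list (Nanog, Esrrb, T, Wnt3a, Rnf43 and Notum).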

Additional observations from a re-analysis of the deposited data

Results flagged for a closer look

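The share of Tcf7l1 RNA in the IP over its input differed between NF90/NF110 WT and NF110 KO by 0.34 on the log2 scale (SE 0.08, adjusted p = 0.0269 in limma, 3 experiments each); it was drawn out because 2 genotypes differed under the same contrast by a test of the difference itself. All 3 WT experiments (0.70 to 0.78) lay above all 3 NF110 KO experiments (0.28 to 0.53), and the NF90+NF110 KO experiments (0.42 to 0.72) lay across both. How many of all genes show such a separation was not computed. Tcf7l1 was 1 of 8 genes called, 12.5% beside 13.3% of all genes. Its IP means were 99.7, 101 and 103 FPKM in WT, NF110 KO and NF90+NF110 KO, and its input means 59.7, 76.4 and 69.2. Without the experiments numbered 3 the difference was 0.26 and was not called (adjusted p = 0.196 in limma).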

How the results depend on the processing

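Of 1428 values of the 10 genes under the alternatives, 1329 kept their side of the threshold and, where uncalled, moved by no more than their SE. Called values among these moved by any amount, as Lef1 in NF45 KO (2.2 to 4.65). A further 58 values stayed uncalled but moved by more than their SE. Of the rest, 35 lost a call, 5 gained a call and 1 called value reversed. Among uncalled values 60 changed sign. In NF45 KO against WT, 5 of the 10 genes were called; the count was 3 without the filter, 4 centred per chromosome, 6 with quantile scaling and 0 to 6 with 1 library left out. Centring per chromosome turned Tcf7l1 to 0.19, Tnks to 0.15, Cdh1 to 0.04 and Nanog to 0.19; quantile scaling turned the WT minus NF90+NF110 KO difference of Cdh1, called at 0.20, to -0.04; beyond the construction of these scalings the cause was not tested. In NF110 KO against WT inputs, 0 of 8 genes were called; DESeq2 on recovered reads called 1 and the chromosome 6 level as a term 2. For the 1 call between WT and NF110 KO, the count was 0 without the filter, 0 without the experiments numbered 3 (added after seeing the data) and 0 to 1 with 1 experiment left out; over 18 alternatives the adjusted p for Tcf7l1 ran from 0.00466 to 0.359, with 11 past the threshold.

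The NF45 libraries share a number only (correlation of same-numbered deviations 0.245). With the replicate block 4 genes were called in NF45 KO and 0 in each comparison of inputs, whose same-numbered correlations ran from -0.469 to 0.65. With no replicate block the IP comparisons called 2 genes in WT in place of 5, 2 in NF110 KO, 1 in NF90+NF110 KO in place of 4, and 0 in place of 1 for WT minus NF110 KO. Leaving out a library can leave a group with 1, assumed to vary like the others. Depth limits Lef1, Nkd1, Sp5 and Lgr5: in inputs and IPs Lef1 had 14 to 113 reads and Sp5 at most 14. The comparison of TCF/LEF proteins was not run, since no protein sequences were used here.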
